A study of Mus musculus with 12 samples.

Results

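Total RNA of mouse dorsal root ganglia (DRG) was compared between material that had received AAV-shGpr151 together with AAV-e5'UTR (called e5UTR here) and material that had received AAV-shGpr151 alone. The 6 input columns of the count table were used, 3 for each treatment, of 12 columns in all. The other 6 columns hold RNA pulled down with HA-tagged ribosomes (IP) under the same 2 treatments, and are given beside the input values as separate libraries. All groups came from adult mice of the genotype RPL22HA+/+;Advillin-Cre+, in which Advillin-Cre, active in sensory neurons, turns on HA tagging of the ribosomal protein RPL22. AAV-shGpr151 carries a short hairpin against Gpr151, an orphan G protein-coupled receptor known to rise in injured sensory neurons, and every group carried it. A group without the hairpin was not analysed here. Not stated in the labels are the identity of the e5'UTR insert, how many mice stand behind a column, and whether mice were pooled. The protocol speaks of freshly collected DRGs, whereas the design text speaks of neurons cultured after a preconditioning injury of the sciatic nerve, and which applies to these columns is not settled by the sources used here.

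A DRG holds the cell bodies of sensory neurons, wrapped by satellite glia, with Schwann cells along their axons and with fibroblasts, macrophages, vessels and blood around them. Total RNA therefore measures the steady-state level of transcripts over all these cells, translated or not. A change in a total RNA sample can reflect fewer cells of a type or less RNA per cell, which cannot be told apart in bulk RNA. The 5' untranslated region of an mRNA is the stretch before the coding sequence, where the small ribosomal subunit is loaded and which is known to set how often an mRNA is translated.

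The shGpr151 input columns held 984118 to 985277 estimated counts and the e5UTR input columns 975403 to 977366. Within a group the totals differed by 0.118% and 0.201% of their mean, and a chi-square of each gene's 3 columns was, at the median, 1.12 and 1.08 times what counting gives. The 3 columns of a group are thus close to divisions of 1 pool of reads and were counted as 1 sample, called a pool. The chi-square p was under 0.05 for 7.72% and 7.66% of genes with at least 30 counts. Some genes named below varied between columns by far more than counting gives. The tests below compare the reads of these pools, not the conditions. Their p-values measure only the spread between columns, and no difference has a replicate check. A pool with 0 counts of a gene allows up to 1.41 CPM (counts relative to the scaled library size) for shGpr151 and 1.42 CPM for e5UTR. Intervals and this limit cover counting error only.

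The labelled cell type is the adult DRG neuron. Markers of neurons were present in input at a summed 5157 to 5380 CPM per shGpr151 column and 5221 to 5337 CPM per e5UTR column over 18 genes. Markers of other cells were there too. Satellite glia markers (14 measured) stood at 4537 to 4606 and 4603 to 4767 CPM, and Schwann cell markers (20 measured) at 1767 to 1790 and 1772 to 1830 CPM. Erythroid markers (7 measured), mostly hemoglobin, stood at 2351 to 2407 and 2290 to 2422 CPM. Macrophage and immune markers (18 measured) were at 466 to 542 and 485 to 561 CPM, and no measured member of these lists was at 0 in both pools.

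Few genes differed between the input pools, and nearly all of those were lower with e5UTR. Of 8085 genes tested, 17 passed an adjusted p of 0.05 (0.210%) by edgeR's quasi-likelihood test with Benjamini-Hochberg adjustment, 1 higher (0.0124%) and 16 lower (0.198%), and 421 (5.21%) had an unadjusted p under 0.05. Of the 17, 9 differed by at least 2-fold and 7 by less than 1.5-fold. All 17 had columns that did not overlap between the pools, as did 510 tested genes on the higher side (6.31%) and 345 on the lower side (4.27%). The number called was 11 without the first shGpr151 input column and 11 with DESeq2. It was 16, all lower, of 4717 genes tested from the input columns alone. An exact binomial test of the pooled counts, which takes no spread between columns into account, gave 54 (19 higher, 35 lower).

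**Figure D1:**
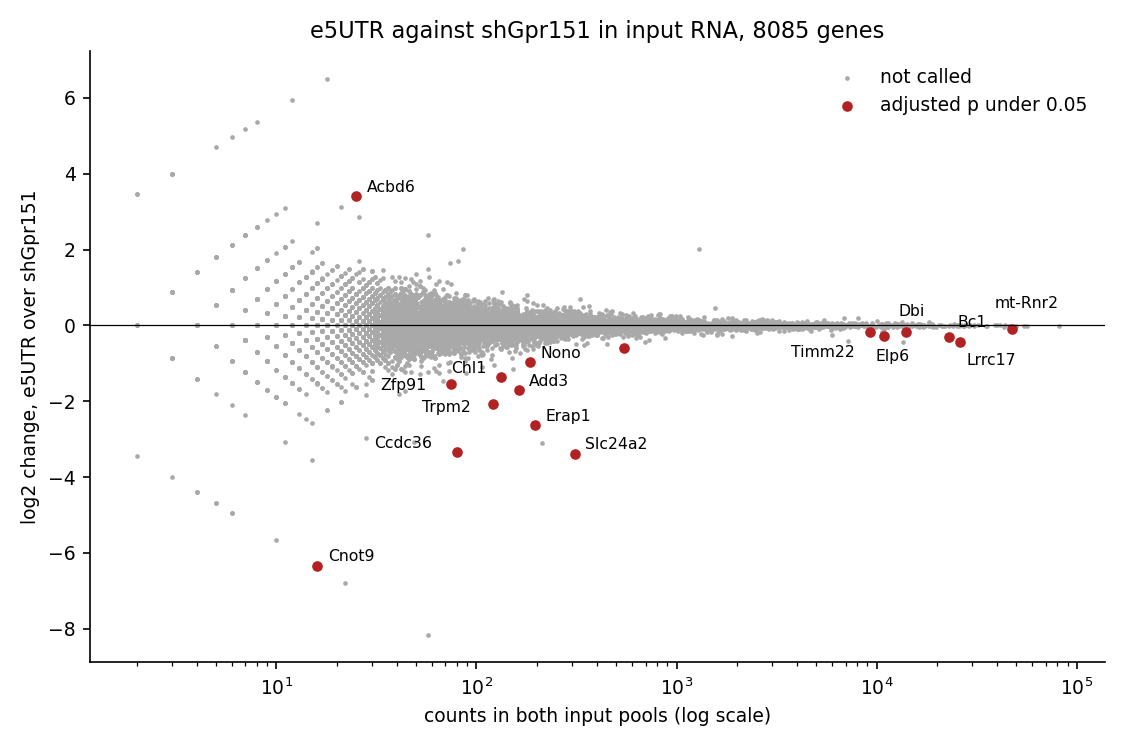
Log2 change of each of 8085 tested genes (e5UTR over shGpr151, input, vertical axis) against its counts summed over both input pools (horizontal axis, log scale), with the 17 genes of adjusted p under 0.05 in red and 16 of them named. The spread narrows from left to right, 1 red point lies above 0 and 16 lie below it.

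How small a change could be seen depended on depth. The 95% interval of the ratio of pooled counts lay wholly within a 2-fold change for 4227 genes (52.3%), within 1.5-fold for 2319 (28.7%) and within 1.2-fold for 890. None of the 1785 genes with under 30 input counts was bounded within 2-fold, so changes of that size were not detectable there unless the counts were as one-sided as those of the 2 genes called in this range. Among the 847 genes with at least 1000 counts, 761 (89.8%) were bounded within 1.2-fold, the middle 90% of their log2 changes ran from -0.12 to 0.12, and 6 were called, all lower. Over all tested genes the median log2 change was 0.01 and the middle 90% ran from -0.76 to 0.74.

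Slc24a2, Trpm2, Chl1 and Add3, which encode a transporter, a channel, an adhesion protein and a membrane skeleton protein, were each lower with e5UTR. Slc24a2, which encodes a potassium-dependent sodium-calcium exchanger of neurons, had 87, 100 and 97 counts in the shGpr151 columns and 8, 10 and 9 in the e5UTR columns. Every e5UTR column lay far below every shGpr151 column, and columns of a group differed by less than counting noise. The ratio of e5UTR to shGpr151 was 0.0955 (95% interval 0.0619 to 0.142), a log2 change of -3.38 ± 0.21 (SE, adjusted p = 6.44e-21). The list of exchangers and calcium pumps had 9 of 17 members in the table and 6 tested, of which Slc24a2 alone was called. Here and below, lists of the families of called genes were chosen with earlier results known. That such a list holds a called gene is therefore no result about the family. The plasma membrane calcium pump genes Atp2b2 (179 and 166 pooled counts, ratio 0.932, 0.750 to 1.16) and Atp2b1 (72 and 67, ratio 0.935, 0.660 to 1.32) were not called.

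Trpm2 encodes a calcium-permeable cation channel opened by ADP-ribose and oxidative stress. It had 52, 24 and 22 counts with shGpr151 and 7, 10 and 6 with e5UTR. The groups did not overlap, but the first shGpr151 column stood above the other two, with a variance of 8.61 times the mean in that group. The ratio was 0.236 (0.143 to 0.374), log2 -2.07 ± 0.33 (adjusted p = 3.76e-05), and without the first shGpr151 column the adjusted p was 0.0566. Of the TRP channel list 11 of 20 members were in the table and 5 were tested. The other 4 lay above 0 and were not called. The capsaicin receptor gene Trpv1 had 15 counts in each pool.

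Chl1 encodes a cell adhesion protein of the L1 family that acts in axon growth, and was the called gene of the injury and regeneration list. Its counts were 38, 32 and 26 with shGpr151 and 15, 12 and 10 with e5UTR, with no overlap. The ratio was 0.387 (0.258 to 0.571), log2 -1.36 ± 0.26 (adjusted p = 0.00108), and 0.0566 without the first shGpr151 column. Among 13 tested genes of the adhesion list Chl1 was the 1 called, and the median was 0.06. L1cam, the founding member of the family, had 8, 12 and 12 against 9, 11 and 4 counts (ratio 0.754, 0.425 to 1.32), and Nrcam had 25 and 32 pooled counts (1.29, 0.739 to 2.26).

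Add3 encodes gamma-adducin, which caps actin filaments and ties them to spectrin under the membrane. It had 51, 37 and 37 counts with shGpr151 and 8, 13 and 17 with e5UTR. All e5UTR columns lay below all shGpr151 columns, a ratio of 0.305 (0.207 to 0.442) and a log2 change of -1.71 ± 0.26 (adjusted p = 1.6e-05). Of 17 tested genes of the adducin and spectrin list, Add3 alone was called and the median was 0.01. Its partners Add1 (35 and 24 counts, ratio 0.689, 0.392 to 1.19) and Add2 (20 and 20 counts) were not called, and their intervals are wide.

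Erap1 encodes the aminopeptidase of the endoplasmic reticulum that trims peptides for MHC class I. Its columns held 63, 60 and 46 counts with shGpr151 against 3, 13 and 11 with e5UTR, again without overlap. The ratio was 0.161 (0.103 to 0.242), log2 -2.63 ± 0.30 (adjusted p = 1.21e-07). The gene overlaps Cast, the calpain inhibitor gene, in the RefSeq annotation, and reads of overlapping genes may be assigned to either. Cast had 21, 25 and 27 counts against 13, 9 and 12, a ratio of 0.468 (0.302 to 0.712) that missed the threshold (adjusted p = 0.0744). Among 16 tested genes of MHC class I antigen processing Erap1 was the 1 called, the median was -0.09 and 11 lay below 0. Of all 8085 tested genes 3934 lay below 0. B2m, the invariant chain of class I, had 374, 357 and 393 counts against 361, 379 and 374 (ratio 0.996, 0.916 to 1.08), and H2-K1 and H2-D1 had ratios of 0.95 (0.637 to 1.41) and 1.10 (0.859 to 1.41).

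Abundant RNAs showed smaller falls that their depth resolved. Lrrc17, a secreted leucine-rich repeat protein gene known as a regulator of bone-resorbing cells, had 4963, 4892 and 5110 counts with shGpr151 and 3540, 3696 and 3844 with e5UTR. The groups stood well apart, although the e5UTR columns varied by 6.26 times counting noise. Its ratio was 0.744 (0.726 to 0.763), log2 -0.43 ± 0.03 (adjusted p = 1.29e-18). Both IP pools held 0 counts of it. As 1 of 13 tested genes of the fibroblast list it made up 14965 of that list's 20018 shGpr151 counts, and none of the other 12 was called. Which transcripts and which cells the Lrrc17 reads come from was not tested. Apod, a lipid carrier of fibroblasts, had 619, 560 and 580 against 607, 569 and 555 counts (ratio 0.989, 0.925 to 1.06).

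Bc1 is a noncoding RNA of neurons that is carried into dendrites and represses translation. It had 4301, 4140 and 4322 counts with shGpr151 and 3403, 3344 and 3489 with e5UTR. The highest e5UTR column was below the lowest shGpr151 column, and the ratio was 0.806 (0.785 to 0.827), log2 -0.31 ± 0.03 (adjusted p = 1.93e-15). Elp6, a subunit of the Elongator complex that modifies the wobble base of tRNAs, had 1988, 1957 and 2043 against 1607, 1644 and 1618 counts, a ratio of 0.817 (0.787 to 0.849) and a log2 change of -0.29 ± 0.03 (adjusted p = 2.25e-09). The other 8 tested genes of the Elongator and tRNA wobble list were not called. Elp5, its neighbour in the complex, had 34, 31 and 26 against 28, 26 and 34 counts (ratio 0.972, 0.717 to 1.32). Elp6 supplied 5988 of the list's 6789 shGpr151 counts, but had 32 and 42 counts in the IP pools. Which transcripts the Elp6 reads come from was not tested.

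Dbi encodes the acyl-CoA-binding protein, also known as an endogenous ligand of the benzodiazepine site. It had 2475, 2484 and 2554 counts with shGpr151 and 2209, 2163 and 2213 with e5UTR, a ratio of 0.881 (0.852 to 0.910) and a log2 change of -0.18 ± 0.03 (adjusted p = 2.68e-06). Acbd6, a further acyl-CoA-binding gene, was the 1 gene called higher. Its columns held 2, 0 and 0 counts with shGpr151 and 6, 7 and 10 with e5UTR, a ratio of 11.6 (2.86 to 101). These are low counts, and the call (adjusted p = 0.0094) was lost with DESeq2 (adjusted p = 0.427) and with limma-voom (0.0817). It was also lost without shGpr151 column 2 or 3 or e5UTR column 3 (0.17, 0.138 and 0.103). When the filter and fit used the input columns alone, Acbd6 was not tested, and of 4717 genes 16 were called, all lower. Of 16 tested acyl-CoA-binding genes Dbi and Acbd6 were the 2 called, and the median was 0.04.

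Timm22, the pore of the TIM22 complex that inserts carriers into the inner mitochondrial membrane, had 1642, 1629 and 1670 counts against 1437, 1464 and 1434. No columns overlapped, and the ratio was 0.882 (0.846 to 0.918), log2 -0.18 ± 0.03 (adjusted p = 0.00151). Among 23 tested mitochondrial import genes it alone was called. The small chaperone genes Timm13 and Timm10b had ratios of 1.00 (0.922 to 1.09) and 1.00 (0.896 to 1.13). The mitochondrial 16S ribosomal RNA, mt-Rnr2, had 8220, 8171 and 8021 counts against 7696, 7515 and 7620, a ratio of 0.940 (0.923 to 0.957) and a log2 change of -0.09 ± 0.02 (adjusted p = 0.00953). This call was lost with DESeq2 (0.297) and without either of 2 shGpr151 or 2 e5UTR columns (0.0793 to 0.218). The neighbouring 12S rRNA, mt-Rnr1, had 3092 and 2855 counts, a ratio of 0.928 (0.881 to 0.976) that was not called (adjusted p = 0.73), and none of the 13 mitochondrially encoded mRNAs was called (median -0.02, 1 with an unadjusted p under 0.05).

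The remaining called genes rest on fewer counts. Nono, an RNA-binding protein of paraspeckles, had 35, 47 and 41 counts against 20, 19 and 24, a ratio of 0.515 (0.374 to 0.703). Zfp91, a zinc finger gene, had 17, 23 and 16 against 6, 7 and 6 (ratio 0.341, 0.191 to 0.583). For both, every e5UTR column was below every shGpr151 column, but their calls (adjusted p = 0.0094 and 0.0304) were lost with DESeq2 (0.0659 and 0.293), with limma-voom (0.0506 and 0.237) and without single columns of either group (up to 0.199 and 0.366). Ccdc36, known from meiotic recombination, had 26, 23 and 24 against 0, 0 and 7 counts (ratio 0.0964, 0.0374 to 0.209), with a variance of 7.0 times the mean in the e5UTR columns. With 0 counts in both IP pools, Ccdc36 passed the filter only through the shGpr151 input columns. That filter favours a fall for Ccdc36, so the direction of this call supports nothing. Its adjusted p of 0.00217 became 0.0521 to 0.0706 without any 1 shGpr151 column, and 1.0 with DESeq2. Cnot9, a subunit of the CCR4-NOT deadenylase, had 8, 3 and 5 counts with shGpr151 and 0 in all e5UTR columns, which is at least 5.31-fold lower against the limit of 3 counts in the e5UTR pool. Its adjusted p was 0.0134, and the call was lost with DESeq2 (0.0956) and with limma-voom (0.0533). It was also lost in 4 of the 6 fits without 1 column in which Cnot9 was tested (0.0808 to 0.144). Cnot9 was not tested in the fit of the input columns alone. The gene ID ENSMUSG00000141850, for which no symbol was found, had 100, 107 and 123 against 69, 62 and 88 counts (adjusted p = 0.0177). This call was lost with DESeq2 (0.213), with limma-voom (0.107), without edgeR's robust prior on the spread (0.0916, and 0.142 on the input columns alone) and without any of 4 single input columns (0.0706 to 0.335).

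**Figure D2:**
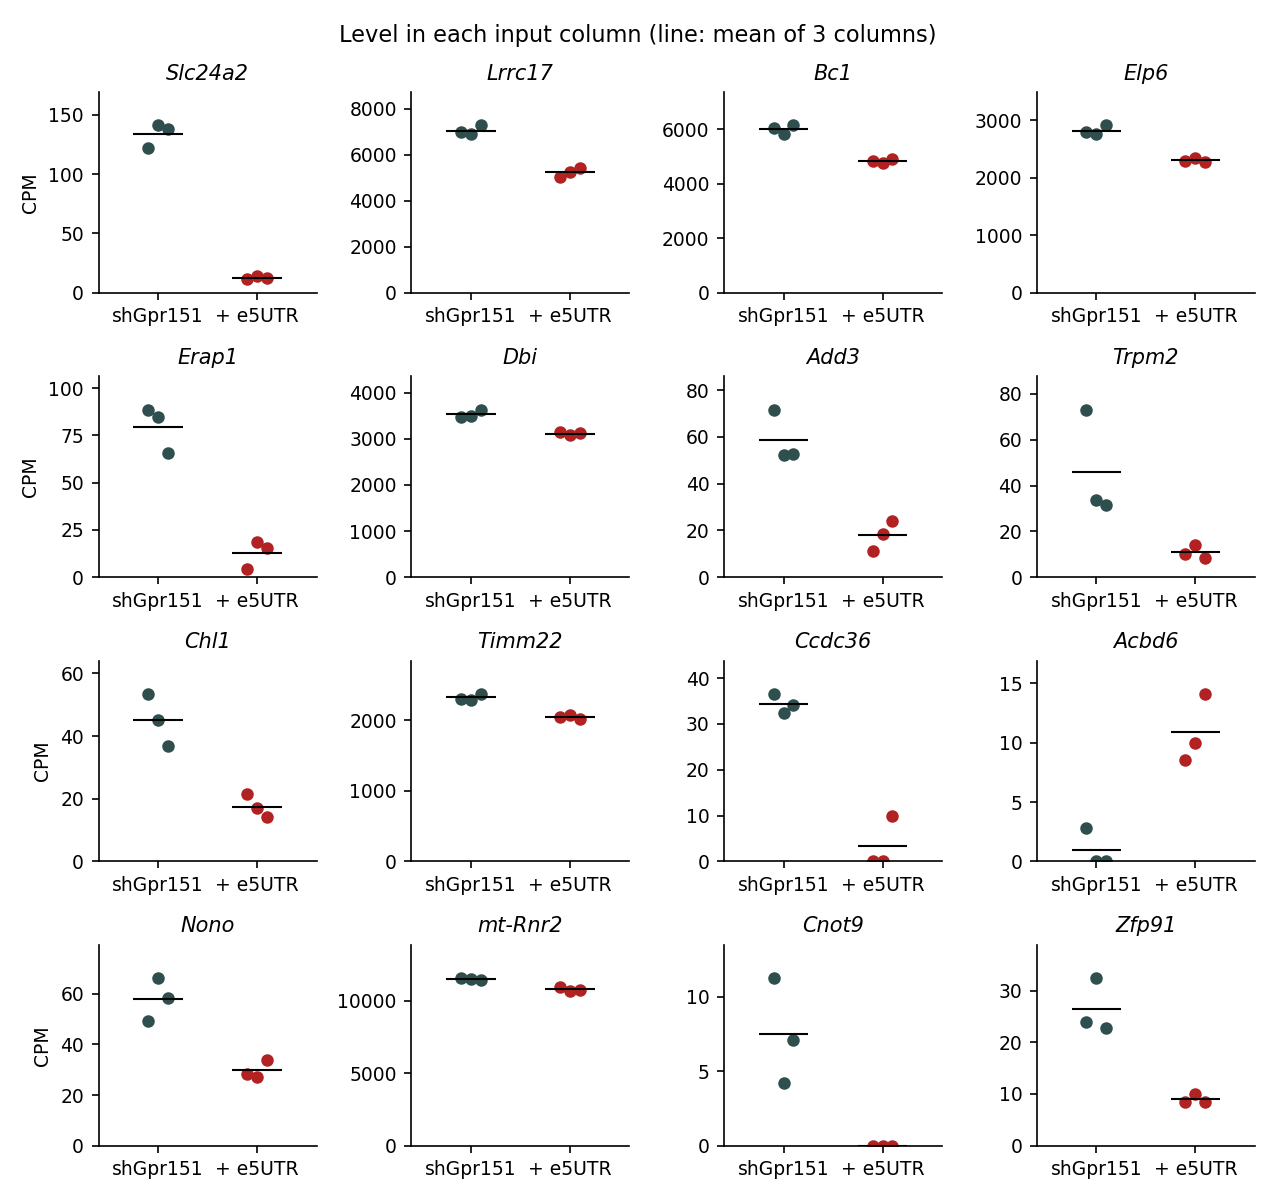
Level of 16 called genes in each input column, in CPM from 0 (vertical axis), for the 3 shGpr151 columns (dark) and the 3 e5UTR columns (red), with a line at the mean of the 3 columns. In 15 panels all red points lie below all dark points, in Acbd6 they lie above, and columns are not replicates of the conditions.

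Neighbouring genes in the RefSeq annotation of GRCm38.p6, which was used only for names and order, were found in the table for 15 of the 17 called genes, not for Chl1 or ENSMUSG00000141850. For Slc24a2, Add3 and Zfp91 no neighbour was tested. For the other 12, no tested neighbour was called. Usp37, which overlaps Cnot9, had 89 and 78 counts, and 3110009E18Rik, which overlaps Dbi, had 103 and 90. Beside Ccdc36, Usp4 had 99 counts in each pool.

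Genes of the injured neuron other than Chl1 were not called. Atf3, the injury transcription factor of sensory neurons, had 50, 52 and 55 counts with shGpr151 and 69, 56 and 63 with e5UTR, which do not overlap but were not called (ratio 1.2, 0.968 to 1.5, adjusted p = 0.966). Sprr1a, an axon growth gene, had 112, 131 and 101 against 115, 119 and 96 (0.964, 0.826 to 1.12). Gap43, the growth cone protein, had 138, 158 and 143 against 140, 136 and 130 (0.929, 0.810 to 1.07). The columns of both genes overlapped. Jun (ratio 1.00, 0.681 to 1.48) and Sox11 (0.789, 0.430 to 1.43) had 56 counts or fewer in a pool, so larger changes are within their intervals. Over 36 tested injury genes 1 was called and the median was 0.01, and the summed counts of all 39 measured had a ratio of 0.993 (0.975 to 1.01).

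Gpr151 itself had 7, 16 and 12 counts against 8, 9 and 12, a ratio of 0.833 (0.491 to 1.40). Both pools carry the hairpin, so these values do not check it. Rpl22, the tagged gene, had 413, 446 and 425 against 453, 455 and 419 counts (1.04, 0.961 to 1.12). Avil, the gene whose promoter drives Cre, had 17, 11 and 15 against 19, 22 and 19 (1.40, 0.932 to 2.13). Pan-neuronal genes had a summed ratio of 0.996 (0.970 to 1.02) and nociceptor genes 1.00 (0.966 to 1.04), with 0 of 18 and 0 of 13 tested members called by edgeR and 1 of each at an unadjusted p under 0.05. The most counted of them were Uchl1, a neuronal deubiquitinase, at 1548, 1532 and 1552 against 1537, 1492 and 1468 (0.976, 0.936 to 1.02), and the neuropeptide genes Gal (0.988, 0.945 to 1.03) and Calca (1.05, 0.959 to 1.15).

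Markers of other cells gave no edgeR call apart from Lrrc17, and 0 Schwann cell, satellite glia, macrophage and erythroid genes, 1 endothelial and mural gene and 2 fibroblast genes (Lrrc17 included) had an unadjusted p under 0.05. Schwann cell genes had a median log2 change of 0.10 over 17 tested and satellite glia genes 0.03 over 11. Their summed ratios, over 20 and 14 measured, were 1.01 (0.970 to 1.06) and 1.02 (0.989 to 1.05). Apoe, a lipid carrier of satellite glia, had 443, 455 and 456 against 496, 481 and 462 counts (1.07, 0.991 to 1.15). Hemoglobin genes summed to 5034 and 4924 counts. Macrophage genes had a median of 0.08 over 12 tested, and endothelial and mural genes 0.10 over 6. Fibroblast genes, Lrrc17 included, had a median of -0.02 over 13.

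**Figure D3:**
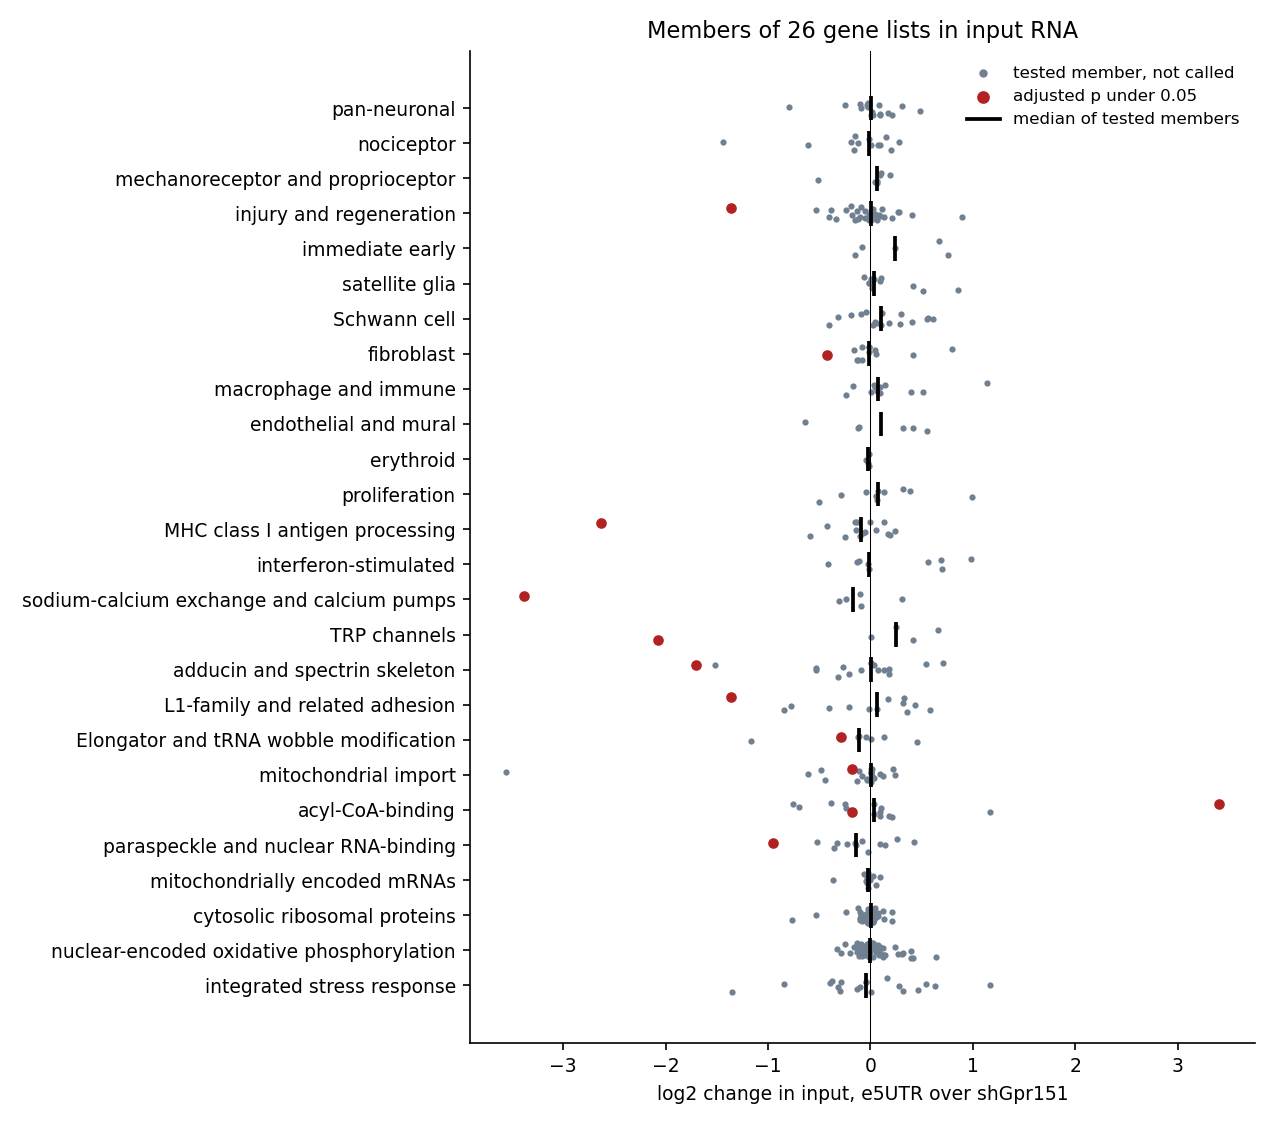
Log2 change in input (e5UTR over shGpr151, horizontal axis) of every tested member of 26 gene lists, with members of adjusted p under 0.05 in red and the median of each list as a bar. The bars lie between -0.17 and 0.25, and each list has at most 1 red point except acyl-CoA-binding, which has 2.

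Large, tightly measured groups gave no call either. The 83 measured cytosolic ribosomal protein genes summed to 365933 and 362979 counts, a ratio of 0.997 (0.992 to 1.00), and the 81 tested had a median of 0.00. The 81 measured nuclear-encoded genes of oxidative phosphorylation had a ratio of 0.998 (0.990 to 1.01), and the 78 tested had a median of -0.01. Rps29, a small-subunit protein gene, had 7413, 7191 and 7262 against 7237, 7111 and 6934 counts (0.978, 0.960 to 0.997, not called). The unadjusted p was under 0.05 for 5 and 8 genes of these groups.

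Stress, interferon and nuclear groups held 1 called gene, Nono. Of 19 tested genes of the integrated stress response, which attenuates translation under stress, 0 were called by edgeR and 1 had an unadjusted p under 0.05, with a median of -0.05. Ddit3, the stress transcription factor CHOP, had 87, 95 and 86 counts against 86, 78 and 79 (ratio 0.911, 0.763 to 1.09), and the groups met at 86. Interferon-stimulated genes had a median of -0.01 over 9 tested and a summed ratio of 0.965 (0.914 to 1.02) over 19 measured. Only 5 of 18 measured immediate early genes were tested, with a median of 0.24. The 18 measured summed to 204 and 215 counts, a ratio of 1.06 (0.870 to 1.29). Proliferation genes had a median of 0.07 over 10 tested, and mechanoreceptor and proprioceptor genes 0.07 over 7. In the list of paraspeckle and nuclear RNA-binding genes, 9 of 13 tested lay below 0 (3934 of all 8085 did). The median was -0.14, and Nono was the 1 called. The summed counts of that list were 3792 and 3506, a ratio of 0.929 (0.887 to 0.973), and most of that fall lay in Malat1 and Nono. Malat1, a nuclear noncoding RNA, had 607, 604 and 608 counts against 522, 532 and 588, which do not overlap but were not called (ratio 0.907, 0.848 to 0.970, adjusted p = 0.857). Sfpq, the partner of Nono, had 34 and 27 counts (0.798, 0.463 to 1.36).

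The same treatments in the IP libraries gave different values for most called genes. Of the 17, 2 were called in IP in the same direction, mt-Rnr2 and ENSMUSG00000141850, and 1, Dbi, in the opposite one. In IP 407 of the 8085 genes were called higher (5.03%) and 567 lower (7.01%), a split that became 197 and 754 with RLE scaling. With any 1 IP column left out, it was 103 to 121 higher and 658 to 697 lower. Dbi had 14177 and 18312 counts in the IP pools, a ratio of 1.19 (1.17 to 1.22, adjusted p = 3.63e-15), whereas it was lower in input. Slc24a2 had 98 and 99 IP counts (0.932, 0.698 to 1.25), Nono 356 and 398 (1.03), and Acbd6 152 and 152 (0.923). The difference of the e5UTR change between fractions passed the test for 11 of the 17 genes, against 465 of 8085 (5.75%) overall. The input pools enter both that difference and the choice of the 17. mt-Rnr2 was lower with e5UTR in both fractions, at 0.801 (0.756 to 0.849) in IP. Lrrc17 and Ccdc36 were at 0 in both IP pools.

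**Figure D4:**
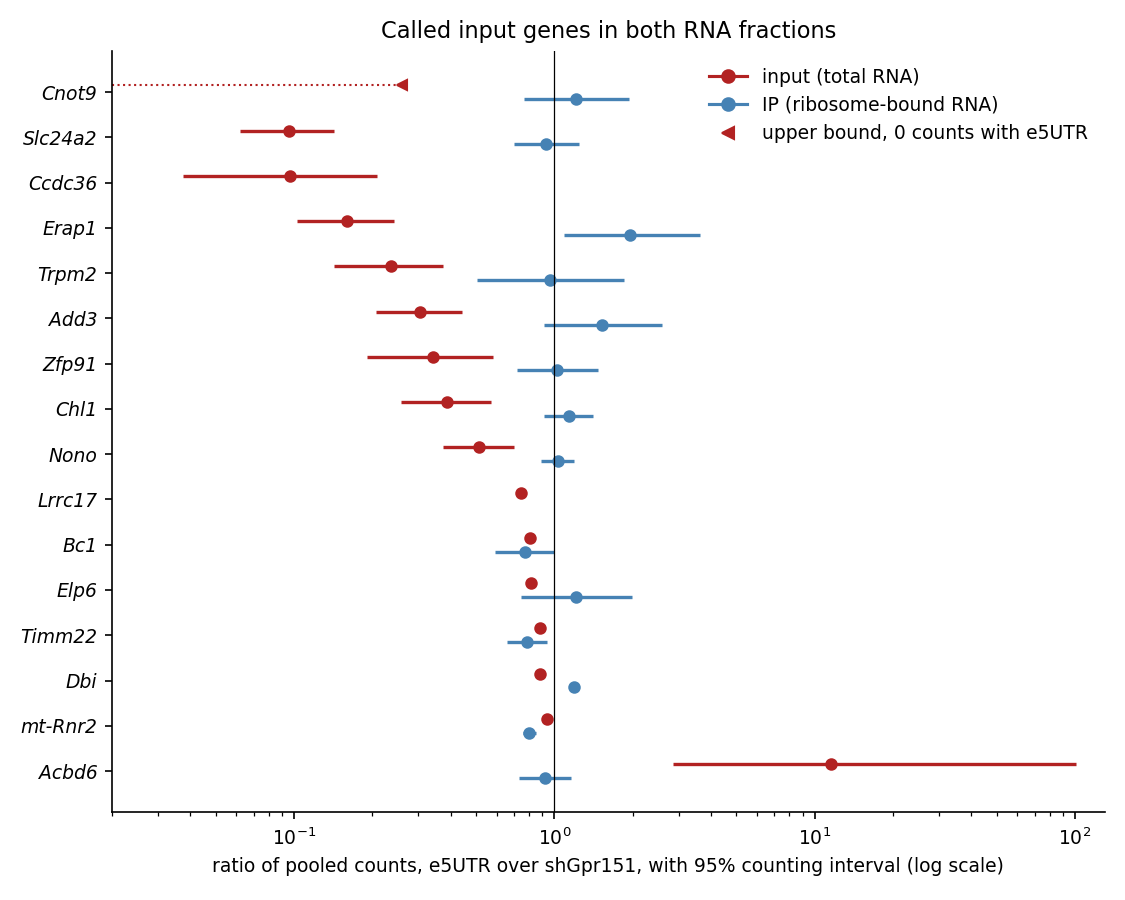
Ratio of pooled counts, e5UTR over shGpr151, with its 95% counting interval (horizontal log axis), for 16 called input genes in input (red) and IP (blue). Genes with no blue point had 0 counts in both IP pools, and the arrow for Cnot9 is the upper bound of an input ratio with 0 e5UTR counts.

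Among genes well counted in both fractions, input also varied less between treatments than IP did. In 633 genes with at least 1000 counts in each fraction, the median deviation of the log2 change from the fraction's own median was 0.03 in input and 0.20 in IP. None of these genes lay 1.2-fold or more from that median in input, against 204 in IP, and 2 and 429 were called. The IP limit leaves out Lrrc17 (input log2 -0.43, 0 IP counts) and Elp6 (-0.29, 32 and 42 IP counts), both called in input. Among 847 genes with at least 1000 input counts, whatever their IP counts, 6 were called in input. Between the pools, the median gene's chi-square was 1.17 times counting in input (6300 genes with at least 30 counts) and 3.12 times in IP (7854 genes). For the same ratio this measure grows with a gene's counts, so these values are not like for like. The IP pools held 4145071 and 4549204 counts, against 2954427 and 2928926 in input.

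**Figure D5:**
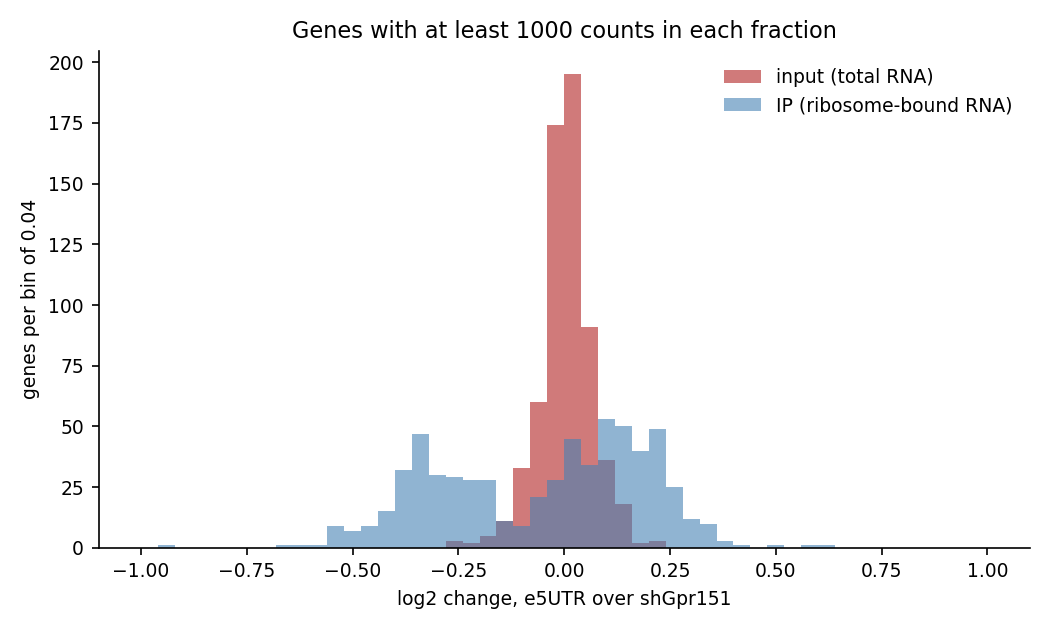
Histogram of the log2 change, e5UTR over shGpr151 (horizontal axis), of 633 genes with at least 1000 counts in each fraction, in bins of 0.04 (vertical axis, genes per bin). The input values (red) lie close to 0, and the IP values (blue) spread to both sides.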

How the data were processed

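The authors deposited estimated counts, written as whole numbers, of 14675 Ensembl gene IDs in 12 columns, whose names match 1 sample each. Per the labels' protocols, a Nanopore cDNA-PCR barcoding kit was used. The submitters' processing notes name minimap2, Salmon, GRCm39 and mm39, without versions or roles. Annotation, filters and the handling of reads that match several genes were not found in those notes or the labels, so overlapping or repeated genes are uncertain. A symbol was found for 13191 IDs (89.9%).

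From these counts edgeR 4.0.16 (R 4.3.3) was run with TMM scaling (factors 0.725 to 0.738 in input, 1.357 to 1.379 in IP), filterByExpr (minimum count 10, minimum total 15, leaving 8085 genes) and the quasi-likelihood test with a robust prior, in 1 model of 4 group means over all 12 columns. P-values were Benjamini-Hochberg adjusted over all tested genes, with a threshold of 0.05. The SE is the log2 change divided by the square root of F. The biological coefficient of variation was 2.58%. Ratios are of pooled counts over TMM-scaled library sizes, with exact binomial (Clopper-Pearson) 95% intervals from scipy 1.17.1. Summed counts and ratios of a list cover all its measured members, tested or not. No molecular identifiers are named in the sources used here, so PCR reads cannot be taken as independent molecules. Alternatives were RLE and library-total scaling, 2 filters, DESeq2 1.42.0, limma-voom (limma 3.58.1), a replicate block, the input columns alone, an exact binomial test and leaving out each column. The fits without the robust prior were added after seeing the data.

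Named genes are those called, the 10 of next smallest p, the 3 most counted of each list, Gpr151, Avil, Rpl22, 5 injury genes, family members of called genes, the 10 most counted, and neighbours. The comparison, the members and the 26 gene lists were chosen with earlier results of these data known. Some genes that fall under this rule are not reported here. No promoter or protein sequence is shown.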

Additional observations from a re-analysis of the deposited data

Results flagged for a closer look

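The results below are genes for which the e5UTR change in IP differed from that in input by the interaction term of edgeR's quasi-likelihood test (adjusted p under 0.05, Benjamini-Hochberg). Each value is the log2 change in IP minus that in input. The input pools enter both this difference and the choice of genes, every fraction and treatment is 1 pool, and what sets the fractions apart was not tested.

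Among genes of membrane, surface and calcium handling the difference was 3.28 for the exchanger gene Slc24a2 (adjusted p = 3.6e-13), 2.03 for the channel gene Trpm2 (0.0242), 1.55 for the adhesion gene Chl1 (0.000178) and 2.31 for the adducin gene Add3 (0.000161). For the aminopeptidase gene Erap1 it was 3.57 (1.02e-05), and for Cast, which overlaps it, 1.40 (0.00166). In IP, Erap1 had 18 and 38 counts, on the higher side with e5UTR but not called (adjusted p = 0.195).

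Dbi differed by 0.44 (3.14e-16), since it was lower with e5UTR in input and higher in IP, both called. The mitochondrial rRNA mt-Rnr2 differed by -0.23 (5.61e-05), with the greater fall in IP. For RNA-binding and regulatory genes the values were 1.00 for Nono (0.00251), 1.58 for Zfp91 (0.0203) and 6.61 for Cnot9 (0.00125). The value for Cnot9 depends on the prior count, since its e5UTR input pool held 0 counts.

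Acbd6 went the other way, at -3.52 (0.000741), as did 2 genes that were not called in input. Dennd4a, a regulator of Rab GTPases, differed by -2.92 (0.0107) and had 5, 1 and 3 against 3, 21 and 24 input counts, so that 1 e5UTR column lay within the shGpr151 range. The ADP-ribosylation factor gene Arf5 differed by -1.06 (0.00686), with 17, 18 and 12 against 25, 35 and 27 input counts. Timm29, a partner of Timm22 in the TIM22 complex, differed by 4.43 (0.00176) and had 3, 6 and 5 against 0, 1 and 0 input counts (adjusted p = 0.175 in input).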

How the results depend on the processing

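The count of genes called in input was 17, and it stayed 17 with RLE or library-total scaling. It was 20 without a filter, 15 with a mean count of at least 10, 14 with limma-voom and 16 without the robust prior. Ccdc36 and Cnot9 were not tested with the mean count filter. From the input columns alone it was 16 of 4717 tested, all lower, and Acbd6 and Cnot9 were not tested there. It was 11 with DESeq2 and 54 in the exact binomial test of pooled counts. Leaving out 1 column at a time gave 11 to 18. The 8 genes called under every alternative run were Slc24a2, Lrrc17, Bc1, Elp6, Erap1, Dbi, Add3 and Timm22, and no called gene changed direction. In IP the count of 974 fell to 621 with DESeq2. The split of higher against lower IP calls was 407 and 567 with TMM, 197 and 754 with RLE and 88 and 533 with DESeq2. With any 1 IP column left out, it was 103 to 121 against 658 to 697. For the difference between fractions, the split of 146 and 319 then became 46 to 50 against 399 to 417. For these changes the cause was not tested. Same-numbered input columns deviated with correlations of -0.045, 0.079 and 0.107 over 3359 genes, so the numbers were not taken to pair the columns. With the replicate number as a block, 15 genes were called in input, 924 in IP and 443 for the difference, and the calls of Ccdc36 (adjusted p = 0.14) and Zfp91 (0.0513) were lost. Depth limits the comparison most for genes with under 100 input counts, and no setting replaces a second pool of each treatment.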

Other observations

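A set of 11 genes with at least 1000 input counts and under 100 counts in each IP pool was chosen after values were seen. Of its members 9 lay below 0 and 2 above, against 399 below and 448 above among all 847 genes with at least 1000 input counts. It holds Lrrc17 and Elp6, both called, where 6 of all 847 genes with at least 1000 input counts were called. It also holds Akap5, the gene of an anchoring protein for kinase A at synapses, named after its values were seen. Akap5 had 2627, 2666 and 2573 counts with shGpr151 and 2114, 1762 and 1882 with e5UTR, a ratio of 0.736 (0.711 to 0.761). Its e5UTR columns varied by 16.7 times counting noise, and its adjusted p was 0.21 by edgeR's quasi-likelihood test with the robust prior. The predicted genes Gm28437 (1036 and 856 counts, log2 -0.27) and Gm10925 (857 and 727, -0.23) of the same set were lower but not called. The hemoglobin genes of the set, all below 0, differed little (log2 -0.04 to -0.01), with Hba-a2 at 1306 and 1265 counts and Hbb-bs at 1872 and 1829.

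Several genes not known as DRG genes were among the most counted in input and hardly differed between the pools. Unc13d, a gene of granule release in immune cells, had 8911, 9220 and 9206 counts with shGpr151 and 9041, 8854 and 8985 with e5UTR. Nanog, a transcription factor gene of pluripotent cells named after its values were seen, had 3887, 3859 and 3796 against 3925, 3855 and 3890. Which transcripts these reads come from was not tested.

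The predicted gene Gm12953, also named after its values were seen, had 0, 193 and 63 counts with shGpr151 and 182, 388 and 464 with e5UTR. Columns of 1 group differed from each other far beyond counting noise, and it was not called (adjusted p = 0.947). Sod1, the cytosolic superoxide dismutase gene, had 443, 467 and 445 against 373, 409 and 392 counts, a ratio of 0.871 (0.804 to 0.942) that missed the threshold (adjusted p = 0.175).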
